A study of Caenorhabditis elegans with 32 samples.

Results

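The polysome fraction of Caenorhabditis elegans adults with a full in-frame deletion of lotr-1 was compared with that of the tagged wild type. The comparison holds 8 of the 32 RNA-seq libraries of the study, 4 of each strain, chosen by their labels. The deletion strain, DUP207, carries the allele sam117 and is called ΔLOTR-1 here. The wild type, DUP167, carries sam85, an insertion of 3xFLAG::gfp at the 5′ end of lotr-1. The genotype label of DUP207 names the same tag, so both strains are labelled as carrying it, and neither is untagged. All animals were untreated hermaphrodites kept at 20 °C and taken on the first day of adulthood, and whole animals were lysed. Each lysate was split: part gave a total mRNA library, called the lysate library here, and the rest was run on a sucrose gradient to collect polysomes. Replicates 1 to 4 of both strains share their numbers, and libraries were paired by that number. Another 16 libraries, of strains that lack the LOTUS or the Tudor domain, also entered the fits. They helped to set which genes were tested, the scaling of libraries, the replicate block and the common spread.

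LOTR-1 is a protein with LOTUS and Tudor domains that sits in Z granules, a layer of the germ granules on the outer face of germ cell nuclei. Germ granules hold the small RNA machinery of the germ line. There, piRNAs bound to the Argonaute PRG-1 recognise transcripts, and RNA-dependent RNA polymerases then make 22G-RNAs that silence them. Polysomes are mRNAs loaded with several ribosomes, so the polysome fraction samples mRNA engaged with translation. A gene's level in it depends on how much of the mRNA the animal holds and on how much of that mRNA carries ribosomes. In whole animals, a lower level through fewer cells of a type and through less RNA per cell cannot be told apart.

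The 8 libraries held 31.1 to 36.2 M estimated counts. Levels below are CPM, each gene's counts scaled to a common library size. Fold changes are log2 values of ΔLOTR-1 over wild type, and a gene was called at an adjusted p under 0.05 by edgeR's quasi-likelihood test with the replicate number as a block. Marker sets of the germ line, oocytes, sperm, intestine, muscle, neurons and hypodermis were each present in all 8 libraries by their summed levels. Each single marker was detected in at least 1 library, apart from the intestinal marker opt-2, which is not listed under that name. None of the markers was called. Their summed levels differed between replicate numbers. Oocyte markers summed to 8622, 7280, 3721 and 1359 CPM in ΔLOTR-1 replicates 1 to 4, and to 9332, 8450, 2733 and 1280 CPM in wild-type replicates 1 to 4. Replicate 1 held the most and replicate 4 the least oocyte marker mRNA in both strains.

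The targeted gene did not separate the strains in polysomes. lotr-1 (WBGene00008385) measured 99.9, 106, 57.0 and 37.9 CPM in the libraries labelled ΔLOTR-1, against 100.2, 91.1, 49.2 and 36.2 CPM in the wild type, each list running from replicate 1 to 4. The groups overlapped, and the fitted change was 0.12 (SE 0.11, adjusted p = 0.829). In the lysate libraries the same gene averaged 64.7 ± 28.8 CPM in ΔLOTR-1, against 269.5 ± 117 CPM in the wild type (SD, n = 4 each), a log2 change of -2.06 (SE 0.10). The change in polysomes minus the change in lysates was 2.16 (SE 0.15, adjusted p = 4.93e-07). The part of lotr-1 that the counted reads cover is unknown here. So lotr-1 checks the strain labels in the lysates but not in the polysome libraries. Other genes separated the strains the same way in both fractions: F55B11.6 was higher in ΔLOTR-1 by 7.77 in polysomes and 7.46 in lysates (log2), and C27C7.1 changed by -6.64 in polysomes and -6.45 in lysates. Every direction below is that of the polysome libraries labelled ΔLOTR-1.

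Few polysomal mRNAs were called as different between the strains, and most of those called were higher in ΔLOTR-1. A gene not called is not shown to be unchanged. The same model fitted to the lysate libraries called 1246 of 15939 genes tested (7.82%). Of 15378 genes tested, 97 were called (0.631%), 77 of them higher (0.501%) and 20 lower (0.13%) in the libraries labelled ΔLOTR-1. An unadjusted p under 0.05 was reached by 1144 genes (7.44%). Changes of at least 2-fold made up 62 of the higher and 13 of the lower calls, and changes of at least 8-fold made up 23 and 4. All 4 same-numbered pairs went the called way in 76 of the 77 higher and in all 20 lower genes. In 54 of the higher and 11 of the lower genes the 4 values of each strain did not overlap, as in 198 of all genes tested (1.29%). The median level over the 8 libraries was 4.28 CPM for the genes that rose and 6.73 CPM for those that fell, beside 8.41 CPM for all genes tested. Only 4 calls averaged at least 50 CPM over the 8 libraries, a level that 2589 tested genes reached.

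The number of calls rested on the pairing and on the replicates. Without the block 34 genes were called (0.221%). With replicate 1, 2, 3 or 4 left out of all strains, 41, 55, 48 and 91 genes were called.

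**Figure D1:**
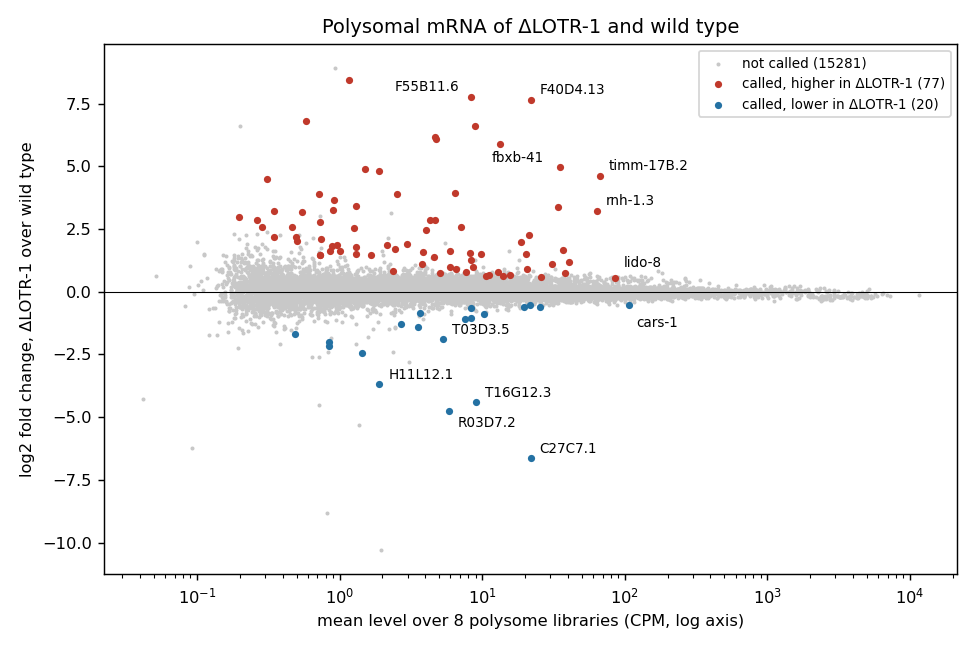
Log2 fold change of each of the 15378 tested genes in polysomes, ΔLOTR-1 over wild type, against its mean level over the 8 libraries in CPM (log axis). Red points are the 77 genes called higher, blue points the 20 called lower and grey points the rest; calls thin out towards the abundant mRNAs on the right, where only timm-17B.2, rnh-1.3, lido-8 and cars-1 average at least 50 CPM.

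The largest gains were in genes that were near absent from wild-type polysomes. This holds in part by construction, since a very high ratio needs a low wild-type level. Of the 77 higher calls 39 (50.6%) had a wild-type mean under 1 CPM, beside 17.8% of all genes tested. F55B11.6 measured 18.7, 17.2, 17.3 and 13.2 CPM in ΔLOTR-1, against 0.134, 0, 0.0972 and 0.0563 CPM in the wild type. It was high in every ΔLOTR-1 library and close to 0 in every wild-type library, with a log2 change of 7.77 (SE 0.38, adjusted p = 7.2e-09). F40D4.13 measured 34.5, 33.3, 52.9 and 54.6 CPM in ΔLOTR-1, against 0.134, 0.103, 0.259 and 0.338 CPM in the wild type. Its change was 7.65 (SE 0.23, adjusted p = 3.6e-11), again without overlap. F11D11.3 stood on 159 counts over the ΔLOTR-1 libraries and 1 count over the wild-type libraries. This is a ratio of 148 with a 95% counting interval of 26.1 to 5860. Y53G8AM.7 and F35F10.7 rose by 4.90 and 4.81 (log2), with wild-type means under 1 CPM, and W09H1.4 rose by 3.91 and Y45F10C.6 by 3.95. K03C7.14 had 80 counts in ΔLOTR-1 and 3 in the wild type, a ratio of 24.7 with a counting interval of 8.17 to 122, and it was not called without replicates 1, 3 or 4 (adjusted p = 0.126, 0.0933 and 0.0668).

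A set of 4 further loci rose in step. WBGene00044642 measured 35.1, 35.4, 21.2 and 12.7 CPM in ΔLOTR-1, against 0.503, 0.757, 0.454 and 0.0563 CPM in the wild type, a change of 5.90 (SE 0.30). WBGene00050977 measured 23.7, 24.1, 15.2 and 7.62 CPM in ΔLOTR-1, against 0.436, 0.103, 0.130 and 0.0563 CPM in the wild type, a change of 6.61 (SE 0.28). The other two, WBGene00269338 and Y39B6A.69, changed by 6.18 and 6.07. In the 4 ΔLOTR-1 libraries their levels kept nearly constant proportions to WBGene00044642: 0.600 to 0.720 for WBGene00050977, 0.324 to 0.365 for WBGene00269338 and 0.321 to 0.386 for Y39B6A.69. Whether the 4 loci share reads was not tested. Outside the rule for named genes, Y43F11A.4 had the highest fitted change of all calls and was chosen after its values were seen. It measured 3.78, 5.38, 0.175 and 0 CPM in ΔLOTR-1, against 0, 0, 0.0324 and 0 CPM in the wild type, so its signal lay in ΔLOTR-1 replicates 1 and 2.

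timm-17B.2 and rnh-1.3 were raised from levels that wild-type polysomes already held. timm-17B.2 encodes a subunit of the translocase that imports proteins across the inner mitochondrial membrane. It measured 89.6, 146, 117 and 163 CPM in ΔLOTR-1, against 3.28, 4.82, 7.23 and 5.80 CPM in the wild type, a change of 4.62 (SE 0.16, adjusted p = 7.5e-11). The lowest ΔLOTR-1 value lay far above the highest wild-type value. Its paralog timm-17B.1 measured 144 to 201 CPM in ΔLOTR-1, against 157 to 184 CPM in the wild type, with a change of -0.07 (adjusted p = 0.900). Of 14 mitochondrial import genes tested, timm-17B.2 was the only call, and the list's median change was -0.12, beside 0.01 over all genes tested. rnh-1.3, an RNase H gene of the family that cuts RNA in RNA:DNA hybrids, measured 152, 150, 85.5 and 76.4 CPM in ΔLOTR-1, against 9.95, 12.8, 13.6 and 11.9 CPM in the wild type. That is a change of 3.23 (SE 0.31, adjusted p = 2.6e-05) with no overlap. The other 4 RNase H genes tested, rnh-1.0, rnh-1.1, rnh-1.2 and rnh-2, ranged from -0.06 to 0.47 and were not called.

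**Figure D2:**
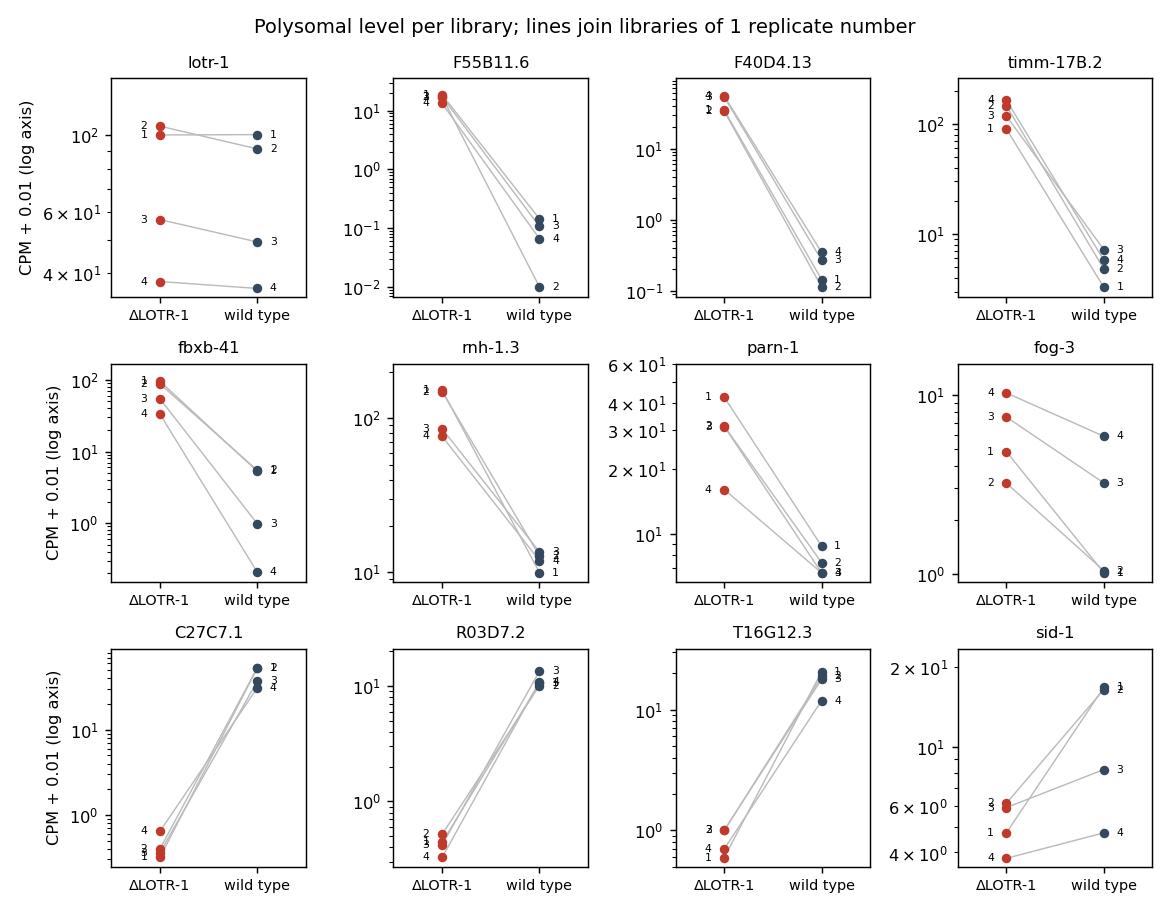
Polysomal level of 12 genes in each library (CPM + 0.01, log axis, a separate scale per panel), ΔLOTR-1 left and wild type right, with lines joining libraries of the same replicate number given beside the points. lotr-1 runs nearly level, F55B11.6, F40D4.13, timm-17B.2, fbxb-41, rnh-1.3, parn-1 and fog-3 are higher in ΔLOTR-1 in all 4 pairs, and C27C7.1, R03D7.2, T16G12.3 and sid-1 are lower in all 4.

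The deepest losses were in C27C7.1, R03D7.2 and T16G12.3, which fell to under 1 CPM in the polysomes of ΔLOTR-1. C27C7.1 measured 0.308, 0.388, 0.350 and 0.632 CPM in ΔLOTR-1, against 52.7, 53.1, 36.9 and 30.9 CPM in the wild type, a change of -6.64 (SE 0.23, adjusted p = 7.5e-11). R03D7.2 measured 0.431, 0.508, 0.409 and 0.316 CPM in ΔLOTR-1, against 10.6, 10.1, 13.4 and 10.9 CPM in the wild type, a change of -4.75 (SE 0.30). T16G12.3 measured 0.585, 0.986, 0.993 and 0.690 CPM in ΔLOTR-1, against 20.6, 18.8, 17.9 and 11.9 CPM in the wild type, a change of -4.40 (SE 0.24). The strains did not overlap in any of the 3. H11L12.1 averaged 0.280 ± 0.185 CPM in ΔLOTR-1, against 3.53 ± 0.64 CPM in the wild type (SD, n = 4 each), a change of -3.69. T03D3.5 averaged 2.24 ± 0.36 CPM in ΔLOTR-1, against 8.37 ± 1.40 CPM in the wild type, a change of -1.90.

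Smaller losses kept their direction but lost their calls in some fits with a replicate left out. Such a fit holds fewer libraries, so a lost call does not show that the change rested on that replicate. WBGene00008537 fell by 2.46, F35F10.13 by 2.15, WBGene00014947 by 2.02, WBGene00010295 by 1.70, Y55F3BR.2 by 1.08 and T10D4.6 by 0.89 on the log2 scale. Without replicate 1 none of these 6 was called, with adjusted p of 0.0806 to 0.58. WBGene00014947 and Y55F3BR.2 were also not called without replicate 2 (0.176 and 0.151) or 3 (0.0933 and 0.146), and F35F10.13 not without replicate 4 (0.0506). WBGene00010295 was not called with any of the 4 replicates left out (0.0821 to 0.58). In a fit of only the 8 libraries of both strains, Y55F3BR.2 and WBGene00010295 were not called either (0.108 and 0.164).

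Among small RNA genes parn-1 was called higher, eri-6 and sid-1 were called lower, and no germ granule gene was called. parn-1 encodes the exonuclease that trims the 3′ ends of piRNA precursors. It measured 42.4, 31.2, 31.2 and 16.01 CPM in ΔLOTR-1, against 8.81, 7.40, 6.64 and 6.65 CPM in the wild type. That is a change of 1.98 (SE 0.23, adjusted p = 0.00024), and the lowest ΔLOTR-1 value exceeded the highest wild-type value. It was the only call among 18 piRNA pathway genes, whose median change was -0.07. prg-1, which encodes the piRNA Argonaute, averaged 105 ± 19.7 CPM in ΔLOTR-1, against 112 ± 22.4 CPM in the wild type (SD, n = 4 each), a change of -0.07 (adjusted p = 0.924). parn-1 was also the only call among 24 genes of mRNA decay and deadenylation, and its relative parn-2 had a change of -0.08.

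eri-6 encodes a helicase of the ERI pathway, which makes 26G-RNAs and competes with other small RNA pathways for shared factors. It measured 1.02, 0.926, 2.13 and 4.48 CPM in ΔLOTR-1, against 3.75, 4.37, 5.74 and 6.14 CPM in the wild type, a change of -1.39 (SE 0.24, adjusted p = 0.0082). The groups overlapped through ΔLOTR-1 replicate 4, though each pair was lower. The helicase is made by trans-splicing eri-6 to eri-7 transcripts, and eri-7 had a change of -0.43 that was not called (adjusted p = 0.569). No other of the 14 ERI pathway genes tested was called. sid-1 encodes the channel that lets cells take up double-stranded RNA during systemic RNAi. It measured 4.74, 6.13, 5.90 and 3.79 CPM in ΔLOTR-1, against 16.7, 16.4, 8.20 and 4.73 CPM in the wild type, a change of -1.03 (SE 0.21, adjusted p = 0.0284). The difference was wide in replicates 1 and 2 and narrow in 3 and 4, and the groups overlapped through wild-type replicate 4. sid-2, sid-3 and sid-5, which act in the uptake or spread of double-stranded RNA, had changes of 0.01, -0.01 and -0.03. Without replicate 1, 2 or 3, eri-6 was not called (adjusted p = 0.201, 0.0703 and 0.16), nor was sid-1 (0.608, 0.316 and 0.0961). In a fit of only the 8 libraries of both strains, eri-6 and sid-1 were not called either (0.0764 and 0.179).

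Of 28 germ granule genes 0 were called, with changes from -0.21 for pgl-1, a scaffold of P granules, to 0.27 for pid-4, and a median of -0.02. The helicase gene glh-1 averaged 354 ± 66.8 CPM in ΔLOTR-1, against 404 ± 34.9 CPM in the wild type, a change of -0.21 (adjusted p = 0.746). Likewise 0 of 18 Argonaute genes, 0 of 19 genes of 22G-RNA amplification and 0 of 22 genes of nuclear RNAi and chromatin were called. Over all genes tested 0.631% were called, so lists this small would most often hold no call. Among Argonaute genes alg-3, which acts in sperm development, had the highest change at 0.65 (adjusted p = 0.421), and csr-1 and hrde-1 had -0.12 and -0.06. rde-11, which acts with the 22G machinery, had 0.39. In each of these 4 lists 1 gene had an unadjusted p under 0.05, and DESeq2 and limma-voom called 0 as well. Of 8 tested genes known as targets of small RNAs, E01G4.5 and K02E2.6 were called, both higher. E01G4.5 measured 21.7, 19.7, 5.20 and 2.87 CPM in ΔLOTR-1, against 6.90, 6.82, 1.59 and 1.295 CPM in the wild type, a change of 1.53 (SE 0.16). Its groups overlapped across replicate numbers, and every pair was at least 2-fold higher. K02E2.6 changed by 0.84 (adjusted p = 0.040) and was called with none of the 4 replicates left out (adjusted p = 0.12 to 0.368). A fit of only the 8 libraries did not call K02E2.6 either (0.127). bath-45 had a change of 1.72 and xol-1 of 1.16, and neither was called (adjusted p = 0.145 and 0.617). F07B7.2 had the lowest change of the list at -4.50 and was not called (adjusted p = 0.485). It measured 0, 0.120, 0 and 0.0575 CPM in ΔLOTR-1, against 0, 2.82, 0 and 2.70 CPM in the wild type. The median of the list was 0.63.

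**Figure D3:**
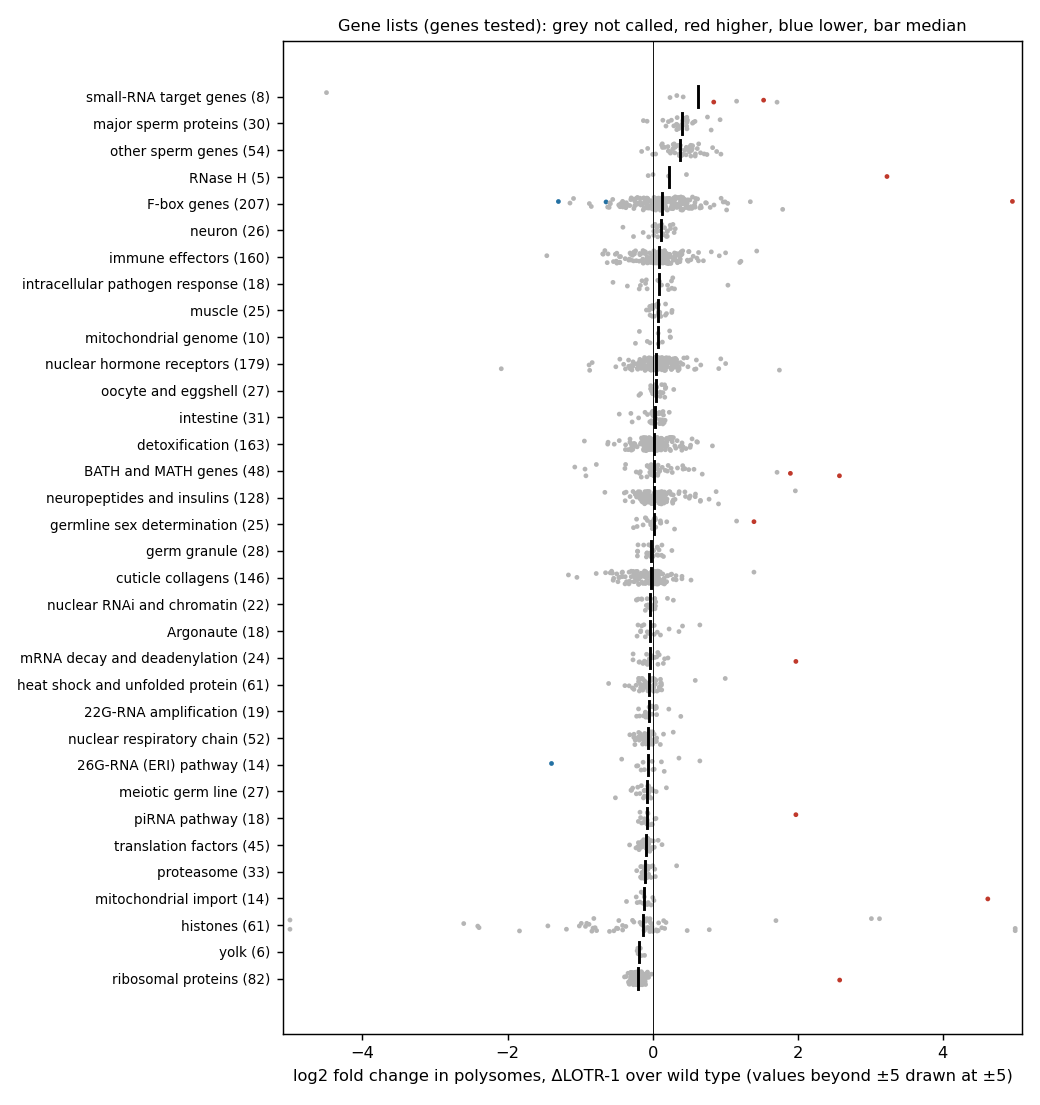
Log2 fold change in polysomes, ΔLOTR-1 over wild type, of the tested members of 34 gene lists, ordered by median (black bar), with the number tested in parentheses. Grey points were not called, red points were called higher and blue points lower; the germ granule and 22G-RNA rows lie between -0.22 and 0.39, while parn-1, eri-6, rnh-1.3, timm-17B.2 and fbxb-41 stand apart from the rest of their lists.

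A few adaptor genes of ubiquitin ligases were called. F-box and BATH proteins bring substrates to cullin ligases, and both families are large and fast changing in nematodes. Of 207 F-box genes tested 1 was higher and 2 lower, with a median of 0.13. Over all genes tested 0.501% were called higher and 0.13% lower. fbxb-41 measured 95.6, 88.2, 54.4 and 33.2 CPM in ΔLOTR-1, against 5.29, 5.44, 0.972 and 0.197 CPM in the wild type, a change of 4.96 (SE 0.37, adjusted p = 1.1e-06). Every ΔLOTR-1 value lay above every wild-type value, and in both strains replicates 1 and 2 were higher than 3 and 4. fbxb-7 averaged 1.58 ± 1.44 CPM in ΔLOTR-1, against 3.84 ± 3.33 CPM in the wild type, a change of -1.298, and fbxa-192 averaged 6.57 ± 0.66 CPM in ΔLOTR-1, against 10.2 ± 0.83 CPM in the wild type, a change of -0.64. Of 48 BATH and MATH genes tested, bath-13 (2.58) and bath-24 (1.90) were higher and none was lower. bath-24 measured 4.55, 6.69, 3.503 and 4.17 CPM in ΔLOTR-1, against 0.972, 1.72, 1.00 and 1.35 CPM in the wild type. Left-out replicates ended the calls of bath-13 (any of the 4, adjusted p = 0.107 to 0.18), fbxb-7 (replicate 1, 0.126) and fbxa-192 (replicates 1, 2 and 3, 0.187, 0.054 and 0.0933). A fit of only the 8 libraries did not call fbxa-192 either (0.0651). Reads of these families can be shared between similar copies, so values of single members are uncertain.

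The enu-3 family, chosen after its values were seen, rose in most members. The family is named for a gene that acts in motor axon outgrowth. enu-3.6 measured 43.3, 45.9, 30.4 and 21.9 CPM in ΔLOTR-1, against 7.87, 8.12, 5.93 and 6.39 CPM in the wild type, a change of 2.28 (SE 0.16, adjusted p = 4.3e-07). Its relatives enu-3.1, enu-3.5 and enu-3.3 rose by 1.65, 1.51 and 0.91 (log2). enu-3.2 had a change of 0.49 that was not called (adjusted p = 0.182). dep-1, a receptor tyrosine phosphatase that limits EGF receptor signalling in vulval cells, was also chosen after its values were seen. It measured 78.4, 80.2, 53.2 and 35.9 CPM in ΔLOTR-1, against 4.49, 5.13, 8.69 and 5.35 CPM in the wild type, a change of 3.39 (SE 0.25, adjusted p = 1.1e-06).

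Sperm mRNAs took a larger share of ΔLOTR-1 polysomes in replicates 1 and 2, and fog-3 was called higher. fog-3 encodes a Tob-family regulator that commits germ cells to sperm. It measured 4.80, 3.198, 7.503 and 10.2 CPM in ΔLOTR-1, against 1.01, 1.03, 3.21 and 5.86 CPM in the wild type, a change of 1.40 (SE 0.20, adjusted p = 0.0018). It was the only call among 25 germline sex determination genes tested. Replicates 3 and 4 were higher than 1 and 2 in both strains, so the groups overlapped across numbers. Major sperm proteins, the motility proteins of nematode sperm, took 0.271%, 0.254%, 0.804% and 0.958% of the counts in ΔLOTR-1, against 0.138%, 0.150%, 0.800% and 0.922% in the wild type. Other sperm genes took 0.0779%, 0.0737%, 0.233% and 0.262% in ΔLOTR-1, against 0.0405%, 0.0442%, 0.228% and 0.250% in the wild type. Both shares were higher in ΔLOTR-1 in replicates 1 and 2 and nearly equal in replicates 3 and 4. In the lysates of the same replicates major sperm proteins took 0.122%, 0.103%, 0.429% and 0.485% in ΔLOTR-1, against 0.0652%, 0.0689%, 0.427% and 0.511% in the wild type, with the same split between the replicates.

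No gene of either sperm list was called. Over all genes tested 0.631% were called, so lists of this size would most often hold no call. Of 30 major sperm protein genes tested, 28 had a change above 0, with a median of 0.40, and 5 had an unadjusted p under 0.05. Of 54 other sperm genes, 52 had a change above 0, with a median of 0.38, and 15 had an unadjusted p under 0.05. Over all genes tested 8052 of 15378 had a change above 0, and 7.44% had an unadjusted p under 0.05. The sperm shares moved with the replicate number, so the members of these lists are not independent observations. DESeq2 and limma-voom called 0 in both lists. The 8 sperm markers summed to 196, 171, 735 and 867 CPM in ΔLOTR-1, against 94.2, 103.5, 720 and 855 CPM in the wild type. T05F1.5 and ZK550.5, calls picked after their values were seen, were like the sperm genes higher in replicates 3 and 4 than in 1 and 2 of both strains, but were higher in ΔLOTR-1 in all 4 pairs. T05F1.5 measured 10.3, 8.91, 63.0 and 75.6 CPM in ΔLOTR-1, against 3.75, 3.24, 40.4 and 42.3 CPM in the wild type (1.09, SE 0.22). ZK550.5 measured 24.5, 21.3, 80.4 and 86.0 CPM in ΔLOTR-1, against 7.74, 7.47, 41.7 and 56.8 CPM in the wild type (1.19, SE 0.20). The part of the sperm content in these calls, and in fog-3, was not tested.

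**Figure D4:**
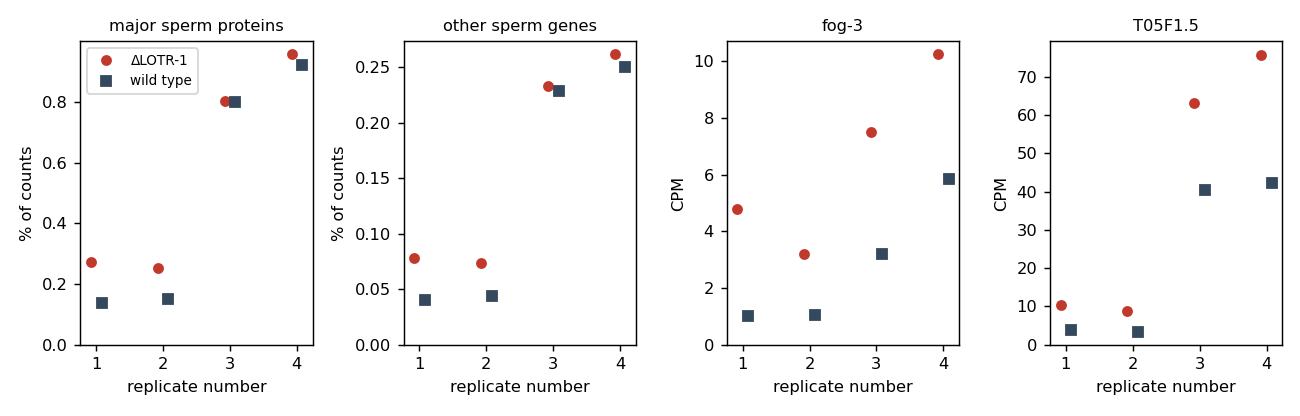
Share of counts taken by major sperm protein genes and by other sperm genes (%), and levels of fog-3 and T05F1.5 (CPM), by replicate number, with ΔLOTR-1 as red circles and wild type as dark squares. Sperm shares are higher in ΔLOTR-1 in replicates 1 and 2 and nearly equal in 3 and 4, whereas fog-3 and T05F1.5 are higher in ΔLOTR-1 in all 4.

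Among mRNAs of the translation machinery, rpl-42 was called higher and cars-1 lower. Of 82 ribosomal protein genes tested, rpl-42 alone was called. It measured 4.77, 6.25, 14.4 and 19.2 CPM in ΔLOTR-1, against 0.469, 0.241, 3.53 and 7.66 CPM in the wild type, a change of 2.58 (SE 0.39, adjusted p = 0.0031). In both strains replicates 3 and 4 were higher than 1 and 2, as for the sperm shares, and it was not called without replicate 1 (adjusted p = 0.076). The other 81 ribosomal protein genes had changes below 0, down to -0.39 for rpl-36 (adjusted p = 0.0795). The median of the list was -0.20, and 27 members, rpl-42 included, had an unadjusted p under 0.05. Over all genes tested 7326 of 15378 had a change below 0, and 7.44% had an unadjusted p under 0.05. DESeq2 called 1 ribosomal protein gene lower and limma-voom none. Ribosomal protein mRNAs together took 23.9%, 27.5%, 25.1% and 27.2% of the counts in ΔLOTR-1, against 26.6%, 27.4%, 27.2% and 30.4% in the wild type. Replicate 2 did not differ, and the other 3 pairs were lower in ΔLOTR-1. Of 45 translation factor genes 0 were called, also by DESeq2 and limma-voom, 2 had an unadjusted p under 0.05, and the median was -0.09. cars-1, the cysteinyl-tRNA synthetase gene, measured 98.0, 81.6, 100.2 and 68.3 CPM in ΔLOTR-1, against 160, 129, 122 and 98.1 CPM in the wild type, a change of -0.54 (SE 0.11, adjusted p = 0.0472). It was not called with any replicate left out (adjusted p = 0.0913 to 0.863), nor with another normalisation (0.0567). lido-8 measured 103.95, 96.2, 98.9 and 107 CPM in ΔLOTR-1, against 80.2, 71.4, 60.1 and 67.6 CPM in the wild type, a change of 0.55 (SE 0.10) that was not called without replicates 1, 3 or 4 (adjusted p = 0.116, 0.104 and 0.105).

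Most lists of somatic and germline genes held no call. Over all genes tested 0.631% were called, so small lists would most often hold none, and an empty list does not set its genes apart. No gene was called among 27 oocyte and eggshell genes (median 0.05), 27 meiotic genes (-0.07), 6 yolk genes (-0.18), 146 cuticle collagens (-0.02), 25 muscle genes (0.08), 26 neuronal genes (0.12) and 31 intestinal genes (0.03). Genes with an unadjusted p under 0.05 numbered 0, 2, 0, 2, 0, 0 and 3 in these lists. limma-voom called none of them, and DESeq2 called 1 meiotic gene lower. syp-1, a component of the synaptonemal complex, had the lowest meiotic value at -0.51 (adjusted p = 0.178). The 10 genes of the mitochondrial genome, 52 genes of the nuclear respiratory chain and 33 proteasome genes also held 0 calls, with medians of 0.08, -0.06 and -0.10 and 0, 6 and 2 unadjusted p under 0.05. DESeq2 and limma-voom called 0 of these. Of 61 histone genes 0 were called and 7 had an unadjusted p under 0.05. The extremes, his-51 and his-65, are near-identical copies whose reads the counting can split, so their values are uncertain. DESeq2 called 1 histone gene higher and 2 lower, and limma-voom called 0. No call fell among 18 genes of the intracellular pathogen response, 61 of heat shock and the unfolded protein response, 160 immune effectors, 163 detoxification genes, 179 nuclear hormone receptors and 128 neuropeptide and insulin genes. Their medians lay between -0.04 and 0.09, and 0, 2, 16, 8, 6 and 6 members had an unadjusted p under 0.05. In these 6 lists limma-voom called 0 and DESeq2 called 1 detoxification gene lower.

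Called genes were spread over the chromosomes with few on X. A reference table of the assembly WBcel235 matched 14914 of the tested genes and 82 of the 97 calls. Of the 77 higher genes, 60 are annotated as protein coding, 2 as lncRNA and 3 as ncRNA, and 12 had no match. The 20 lower genes comprised 17 protein-coding genes and 3 without a match. Chromosome X held 2 of the higher (2.6%) and 1 of the lower genes, against 13.8% of the genes tested. Chromosome II held 18 of the higher genes (23.4%), against 2612 of all genes tested. Neighbouring protein-coding genes were called together in 3 places. F55B11.6 lies next to xdh-1, the xanthine dehydrogenase gene, on chromosome IV, and both were higher (7.77 and 0.62). W09H1.4 and W09H1.1 on chromosome II were higher as well (3.91 and 1.47). On chromosome I, Y23H5A.8 was higher (2.79) and its neighbour cars-1 lower (-0.54). How far the counting kept reads of neighbouring or antisense genes apart by strand is unknown here.

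The study paired each polysome library with a lysate library so that changes in ribosome loading could be set against changes in total mRNA. The polysome and lysate libraries come from the same lysates, so their changes are set side by side and not taken as independent. rnh-1.3 changed by 3.23 in polysomes and 3.08 in lysates, sid-1 by -1.03 and -1.07, and fog-3 by 1.40 and 1.39. For these, and for C27C7.1 and F55B11.6 given above, the difference between the fractions was not called (adjusted p = 1.00). parn-1 changed by 1.98 in polysomes and 1.42 in lysates, a difference of 0.52 (SE 0.18) that was not called either (adjusted p = 0.910).

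The difference between the fractions was called for 9 of 16253 genes tested (0.0554%), and all 9 had the higher change in polysomes. 4 of them are the loci that rose in step: WBGene00050977 (6.61 in polysomes, 3.72 in lysates), Y39B6A.69 (6.07 and 3.45), WBGene00269338 (6.18 and 3.62) and WBGene00044642 (5.90 and 3.71). Their differences were 2.84 (SE 0.40), 2.60 (SE 0.38), 2.54 (SE 0.38) and 2.23 (SE 0.32). timm-17B.2 averaged 129 ± 32.4 CPM in ΔLOTR-1, against 5.28 ± 1.66 CPM in the wild type in polysomes, and in lysates 72.1 ± 13.8 CPM in ΔLOTR-1, against 8.11 ± 1.23 CPM in the wild type (SD, n = 4 each). This is a difference of 1.45 (SE 0.23, adjusted p = 0.0124). Y45F10C.6 had a difference of 1.80 (SE 0.28), enu-3.6 of 1.00 (SE 0.12) and enu-3.1 of 0.65 (SE 0.11). lotr-1, with 2.16, was the ninth. It alone kept its call with each replicate left out (adjusted p = 1.0e-05 to 0.0013). The other 8 lost theirs in 2 to 4 of the 4 such fits, with adjusted p up to 0.726. The fits without replicate 1, 2, 3 or 4 called 4, 2, 3 and 4 genes. Without the lysate as block edgeR called 0 genes (111 at an unadjusted p under 0.05), and DESeq2 with the block called 18.

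**Figure D5:**
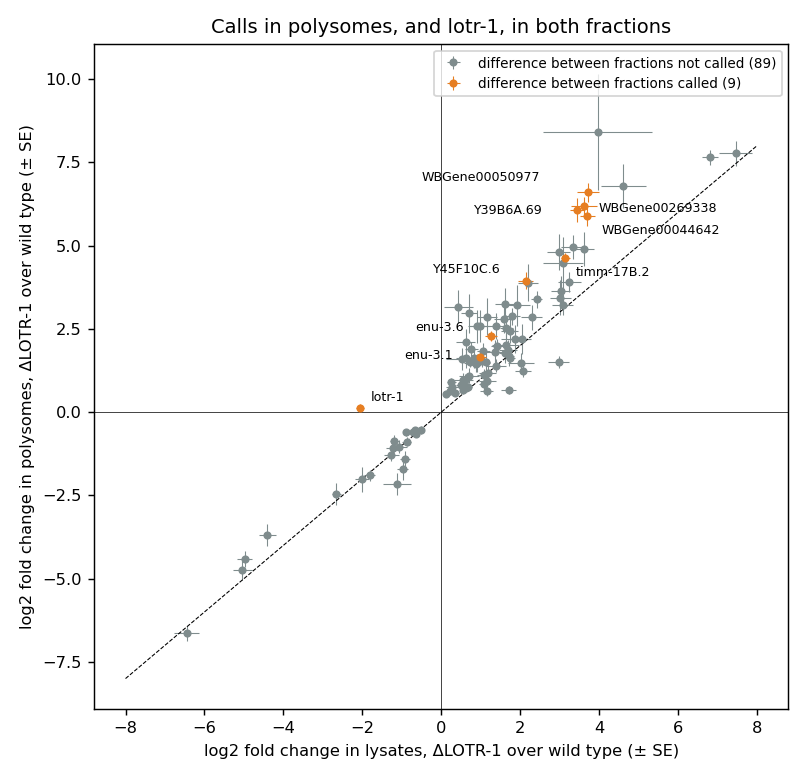
Log2 fold change of the 97 called genes and lotr-1 in polysomes against that in lysates, ΔLOTR-1 over wild type, with bars of ± 1 SE and a dashed line of equal change. Orange points mark the 9 genes whose change differed between the fractions; all 9 lie above the line, and lotr-1 is the point low in lysates and level in polysomes.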

How the data were processed

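Libraries came from a stranded mRNA kit (labels' protocols). The submitters' processing notes name Salmon and DESeq2 without versions; sources used here do not give the genome build or annotation. Deposited expected counts are the authors' estimated counts per gene; 15.3% of the positive values were not whole, and all were rounded. A second deposited table holds the authors' replicate-adjusted whole numbers, treated as a score because the adjustment is not described, and used only as an alternative.

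Polysome genes were tested in R 4.3.3 with edgeR 4.0.16 over all 16 polysome libraries (filterByExpr, TMM, strain plus replicate number as block, quasi-likelihood test, Benjamini-Hochberg over 15378 of 46926 genes, adjusted p under 0.05). The difference between fractions was the interaction of strain and fraction over 32 libraries, with each lysate as block. The standard error is the absolute log2 change divided by the square root of F. CPM use TMM sizes. Alternatives used DESeq2 1.42.0 and limma 3.58.1.

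Deviations from the group means correlated between same-numbered ΔLOTR-1 and wild-type libraries with r of 0.958, 0.938, 0.942 and 0.960 over 7222 genes, against at most 0.879, 0.878, 0.783 and 0.874 with a library of another number, so the numbers, taken from the labels, pair the samples. No label describes separate cultures: a p-value then reflects only how these libraries vary, which may be technical, and intervals cover counting error only. In simulated counts for the polysome comparison (15207 genes) the test recovered 72% of 2-fold and 97% of 4-fold changes; for the difference between fractions (16164 genes) it recovered 57% and 95%. The same tests called 12 and 11 unchanged genes. Changes were simulated only in genes averaging at least 1 CPM, so recovery at lower levels was not measured.

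The comparison, the gene lists, the markers and the alternatives were chosen with earlier results of these data known. Named genes are lotr-1, the 14 highest and 14 lowest calls with all 4 pairs in 1 direction, the 4 most abundant calls and up to 4 calls per list, plus those said to be chosen after their values were seen. Lists were described by counts and medians, with no set test.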

Additional observations from a re-analysis of the deposited data

Results flagged for a closer look

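In 5 of the named genes 1 library lay far from the other 3 of its strain, by a gap test applied to 80 groups of 4 libraries; chance marks about 1 in 20 groups. H11L12.1 was 0.555 CPM in ΔLOTR-1 replicate 3. WBGene00014947 was 0.209 CPM in ΔLOTR-1 replicate 2. F35F10.13 was 0.661 CPM and K02E2.6 was 3.59 CPM in ΔLOTR-1 replicate 4. F11D11.3 was 0.0282 CPM in wild-type replicate 4, which is a single count, with 0 in the other wild-type libraries.

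The strain effect differed between polysomes and lysates, by the test of that difference, for 9 genes. The change in polysomes minus that in lysates was 2.84 for WBGene00050977, 2.60 for Y39B6A.69, 2.54 for WBGene00269338, 2.23 for WBGene00044642, 2.16 for lotr-1, 1.80 for Y45F10C.6, 1.45 for timm-17B.2, 1.00 for enu-3.6 and 0.65 for enu-3.1 (log2).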

How the results depend on the processing

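The polysome comparison called 97 genes, 77 higher and 20 lower. Without the replicate block it called 34, of which 29 were higher and 5 lower, and all 34 were among the 97. The authors' replicate-adjusted table, tested with limma, gave 194 calls, 179 of them higher, and 91 were among the 97. The fit of only the 8 libraries gave 13 lower calls and DESeq2 gave 34. With 1 replicate left out, total calls ranged from 41 to 91, higher calls from 36 to 72 and lower calls from 5 to 19. limma-voom, RLE normalisation, no filter on low counts and a minimum mean of 1 CPM kept total, higher and lower counts within 1.5 times. The difference between fractions, called for 9 genes, was called by edgeR without the block for 0 (111 at an unadjusted p under 0.05), by DESeq2 for 18, and for 2 to 4 genes with 1 replicate left out.

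Of 40 named genes, 20 kept their direction and side of the threshold in every setting that could be computed, and none reversed. Without the block 20 were no longer called, among them fbxb-41 (adjusted p = 0.226), and E01G4.5, fog-3, sid-1 and eri-6 (1.00 each). Without replicates 1, 2, 3 and 4, calls were lost for 16, 9, 11 and 7 of the 40 named genes. Depth limits the genes under 1 CPM, where a few counts per library carry a call.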
